A study of Mus musculus with 12 samples.

Results

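The 10 genes described here encode inducible inhibitors of ERK signaling: the MAP kinase phosphatases *Dusp1*, *Dusp4*, *Dusp5*, *Dusp6* and *Dusp14*, the Sprouty genes *Spry1*, *Spry2* and *Spry4*, and the Sprouty-related genes *Spred1* and *Spred2*. They were picked by gene symbol from 36047 genes in the deposited table, and their 27 listed transcripts were summed to genes. The group was chosen by its values in the 4-month comparison of *Gde2*KO with WT, so those values are given as a description without a p-value. All 10 genes passed the filter on low values in each comparison between groups. At 4 months *Dusp1*, *Dusp6*, *Dusp14* and *Spry2* were higher in all 3 *Gde2*KO libraries than in any WT library, as 11.1% of all genes were. The same genes were lower in WT replicates 1 and 2, which differ in regional markers, than in every other 4-month library, as 22.1% of all genes were. Since their *Gde2*KO libraries already lay above WT, this adds only that WT replicate 3 was the highest WT library. The share over all genes is thus not a like background. At 19 months the libraries of the genotypes overlapped for each of the 10 genes. Over all genes 5.85% were higher and 8.32% lower in every *Gde2*KO library at that age.

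ERK is the last kinase of a relay from receptor tyrosine kinases through Ras, Raf and MEK, and in cortical neurons it is also switched on by synaptic activity and neurotrophins. Active ERK induces genes that shut it down. Dual-specificity phosphatases remove the activating phosphates from MAP kinases, whereas Sprouty and Spred proteins act upstream, at the steps that lead from the receptor to Ras and Raf. Levels of these transcripts are widely read as a trace of recent ERK activity, although none of them measures phosphorylated ERK.

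The study compared cortex of mice lacking GDE2, a surface enzyme that releases GPI-anchored proteins and is encoded by *Gdpd5*, with WT cortex. It asked at 4 months which pathways change early and at 19 months whether splicing changes. Poly(A) RNA from whole cortical tissue was sequenced from 3 WT and 3 *Gde2*KO animals at 4 months and from 3 WT and 3 *Gde2*KO animals at 19 months, 1 library for each of 12 animals. The labels name the genotypes only as WT and Gde2KO, with no strain, allele or treatment. The 4-month libraries carry the numbers 1 to 3 from the labels, and the 19-month libraries, whose columns carry no replicate number, are called A, B and C. The column names of *Gde2*KO libraries B and C begin with the same prefix, and whether those animals share an origin is not given in the sources used here.

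In normalized counts *Gdpd5* was lower in every *Gde2*KO library than in any WT library at both ages, as 4.26% and 8.32% of all genes were. It was at 403 to 585 against 684 to 1199 at 4 months and 441 to 560 against 952 to 1129 at 19 months. Per transcript length (TPM) the genotypes overlapped at 4 months, with 14.9 in *Gde2*KO replicate 2 against 12.3 and 12.7 in WT replicates 1 and 2. Estimated reads were 46434259 to 59728495 per library at 4 months and 3707928 to 44604732 at 19 months, where *Gde2*KO A with 3707928 and WT A with 6734475 were the shallowest. The cortex label was checked against regional markers. WT replicates 1 and 2 at 4 months stood apart from the other 4 libraries of that age: their summed level of 7 striatal markers was 3425 and 2708 normalized counts against 23363 to 58147, and that of 10 hippocampal markers was 37298 and 37751 against 14291 to 23460. All 7 striatal markers were lower and 7 of the 10 hippocampal markers were higher in that pair than in each of the other 4, and none was at 0 in any library. At 19 months the striatal sum spanned 5628 to 8076 in WT and 7270 to 15847 in *Gde2*KO. The hippocampal sum at that age spanned 17528 to 17792 in WT and 19598 to 21500 in *Gde2*KO, without overlap.

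Upstream sequences are given for *Dusp1* and *Dusp6*, which separated the genotypes at 4 months, and for *Dusp5*, which did not, to set windows with and without textbook activity-response elements side by side. Promoter windows of 300 bases, from 250 before to 50 after the start site (strand of the gene, RefSeq, GRCm38.p6), were found for 8 of the 10 genes, not for *Dusp4* and *Spry4*. The *Dusp1* window lies on the minus strand at chr17:26508423-26508722, that of *Dusp6* on the plus strand at chr10:99262981-99263280 and that of *Dusp5* on the plus strand at chr19:53528895-53529194. Capitals mark matches to the cAMP response element TGACGTCA, its half-site (CGTCA, or TGACG on the other strand) and the serum response element known as the CArG box.
Dusp1: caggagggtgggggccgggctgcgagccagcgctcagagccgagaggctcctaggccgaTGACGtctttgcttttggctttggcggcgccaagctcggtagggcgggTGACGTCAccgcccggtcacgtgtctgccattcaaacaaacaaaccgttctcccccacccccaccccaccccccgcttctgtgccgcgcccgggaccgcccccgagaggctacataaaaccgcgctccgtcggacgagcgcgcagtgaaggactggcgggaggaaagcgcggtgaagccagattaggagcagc
Dusp6: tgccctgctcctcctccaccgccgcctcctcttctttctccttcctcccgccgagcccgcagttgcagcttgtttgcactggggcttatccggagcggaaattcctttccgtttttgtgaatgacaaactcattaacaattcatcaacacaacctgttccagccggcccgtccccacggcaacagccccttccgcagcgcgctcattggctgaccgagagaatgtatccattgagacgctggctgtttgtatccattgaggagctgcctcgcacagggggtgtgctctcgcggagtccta
Dusp5: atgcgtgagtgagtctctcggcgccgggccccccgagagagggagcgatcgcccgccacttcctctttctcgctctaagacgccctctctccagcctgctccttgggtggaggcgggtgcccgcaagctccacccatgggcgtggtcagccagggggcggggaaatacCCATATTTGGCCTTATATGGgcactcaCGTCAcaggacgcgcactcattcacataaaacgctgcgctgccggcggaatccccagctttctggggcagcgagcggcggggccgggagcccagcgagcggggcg

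The *Dusp1* window held 1 full cAMP response element, from base -143 to -136 relative to the start, and a separate half-site from -191 to -187. A further pair of half-site matches lies inside the full element. The full element occurred in 1.79% and the half-site in 20.8% of 32851 promoter windows. *Dusp5* held 2 adjacent CArG boxes, from -82 to -73 and from -72 to -63, an element present in 1.63% of windows, and a half-site from -55 to -51. The *Dusp6* window held none of the 8 motifs searched on both strands, which also included the AP-1 element TGANTCA (7.81% of windows), the ETS core CCGGAA (14.9%), the TCF/LEF element CTTTGA (16.0%), the GC box GGGCGG (35.7%) and the TATA box TATAAA (13.6%). *Dusp14* and *Spry2* each held an ETS core, and *Spred2* held a half-site. None of the 8 windows held an AP-1, TCF/LEF or TATA match. These are matches of letters only, and no binding was measured.

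Levels were compared between genes per length, as TPM divided by the authors' size factor. In WT cortex at 4 months *Spred1* was the highest of the 10, with 54.0 ± 16.6 TPM (SD, n = 3), followed by *Spred2* (46.9 TPM), *Dusp14* (38.3 TPM), *Dusp6* (35.1 TPM), *Spry2* (30.6 TPM), *Dusp1* (28.9 TPM), *Dusp5* (16.5 TPM), *Dusp4* (13.1 TPM), *Spry1* (5.55 TPM) and *Spry4* (4.44 TPM). All neighbors in this order overlapped in their libraries except *Dusp4* and *Spry1*. In *Gde2*KO cortex at 4 months *Dusp1* led with 93.4 TPM, ahead of *Dusp14* with 81.3 TPM and *Dusp6* with 71.2 TPM. At 19 months the leaders were *Dusp14* in WT, with 69.0 TPM, and *Spred1* in *Gde2*KO, with 62.3 TPM, and *Dusp1* was at 49.8 and 47.2 TPM. *Dusp5*, *Dusp4*, *Spry1* and *Spry4* were the lowest 4 of the 10 in every group.

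*Dusp1* encodes a nuclear phosphatase that acts on ERK, p38 and JNK and is an immediate early gene itself. Its gene spans chr17:26505590-26562128 on the minus strand (GRCm38) and overlaps *Ergic1* on the other strand, and it was not stated whether counting used strand. At 4 months *Dusp1* stood at 549, 665 and 1546 normalized counts in WT replicates 1, 2 and 3 and at 3397, 2866 and 3134 in *Gde2*KO replicates 1, 2 and 3. WT replicate 3 lay more than 2 times above the other WT libraries and still below each *Gde2*KO library. The difference on the log2 scale was 1.92 ± 0.35 (SE), the largest of the 10, a 3.78-fold higher level.

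*Dusp6*, the cytoplasmic phosphatase specific to ERK and a standard readout of ERK activity (chr10:99263231-99267489, plus strand), was at 1538, 1451 and 1824 normalized counts in WT and at 3447, 2976 and 3595 in *Gde2*KO at 4 months. The WT libraries lay close together and well below the *Gde2*KO libraries. The log2 difference was 1.06 ± 0.14 (SE). *Dusp6* was the 1 of 10 genes past the threshold (Benjamini-Hochberg adjusted p under 0.1 and a natural-log change over 0.5, limma), where 0.126% of 19035 genes passed. With 1 library left out, 4 of the 10 genes passed without WT replicate 3, where 8.03% of all genes did. None of the 10 passed without any other of the 6 libraries. Since this comparison was used in choosing the group, nothing is read from that count.

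*Dusp14*, an atypical phosphatase without a kinase-docking domain (chr11:84048041-84069261, minus strand), was at 630, 538 and 1184 normalized counts in WT and at 1599, 1333 and 2331 in *Gde2*KO at 4 months. *Gde2*KO replicate 2 was only slightly above WT replicate 3. The log2 difference was 1.21 ± 0.32 (SE).

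The other nuclear phosphatases did not share this pattern. *Dusp4* (chr8:34807297-34819894, plus strand), which acts on ERK and JNK, was at 771, 709 and 378 normalized counts in WT and at 546, 395 and 492 in *Gde2*KO at 4 months. WT replicates 1 and 2 were the highest of the 6 libraries and WT replicate 3 the lowest. *Dusp5* (chr19:53529109-53542431, plus strand), which retains ERK in the nucleus, was at 838, 762 and 493 normalized counts in WT and at 647, 513 and 773 in *Gde2*KO. The genotypes overlapped for both genes, with log2 differences of -0.32 ± 0.28 (SE) for *Dusp4* and -0.10 ± 0.24 (SE) for *Dusp5*. The span of an antisense gene overlaps that of *Dusp5*. Whether their exons overlap was not examined, and it was not stated whether counting used strand.

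**Figure D1:**
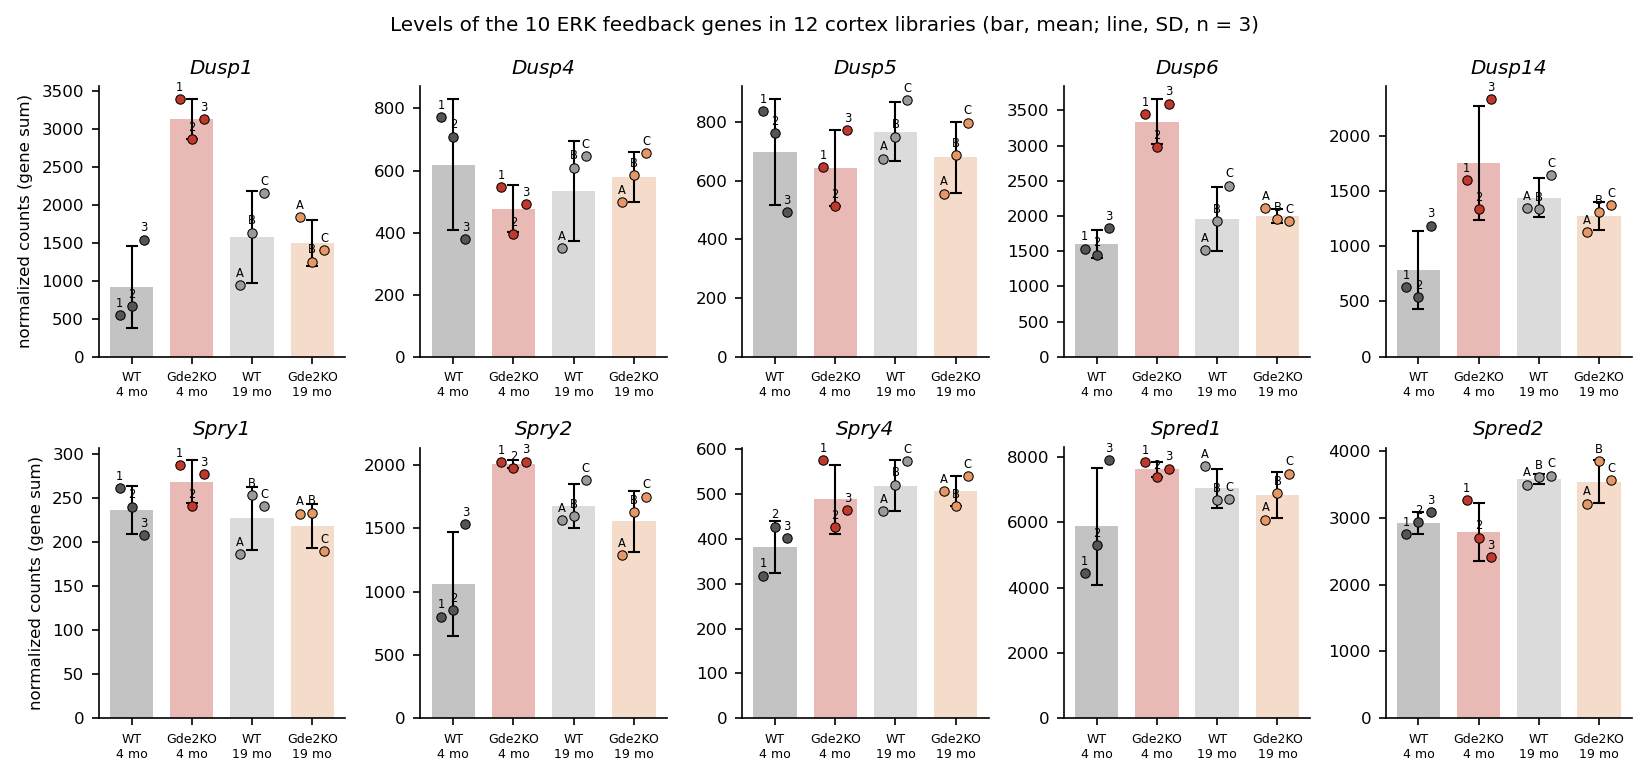
Normalized counts (y axis, gene sums, linear from 0, a separate scale for each gene) of the 10 genes by genotype and age; points are libraries with their number or letter, bars are means and lines are SD (n = 3). *Dusp1*, *Dusp6*, *Dusp14* and *Spry2* are higher in every *Gde2*KO library at 4 months, as 11.1% of all genes are. At that age *Dusp1* runs from 549 to 1546 in WT and from 2866 to 3397 in *Gde2*KO. No gene of the 10 separates the genotypes at 19 months.

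Among the Sprouty genes, *Spry2*, the most widely studied Sprouty in receptor tyrosine kinase signaling (chr14:105891947-105896819, minus strand), was at 802, 851 and 1534 normalized counts in WT and at 2021, 1974 and 2026 in *Gde2*KO at 4 months. On the authors' scale the *Gde2*KO libraries were tightly grouped, and WT replicate 3 lay between them and the other WT libraries. That scale gave *Gde2*KO replicate 3 a normalized total of 4.12e+07. The totals were 3.59e+07 and 3.19e+07 in *Gde2*KO replicates 1 and 2 and 3.27e+07 in WT replicate 3. Whether the grouping and the separation hold with equal totals was not tested. The log2 difference was 0.98 ± 0.24 (SE). *Spry1* (chr3:37639947-37644598, plus strand) was at 261, 240 and 208 normalized counts in WT and at 287, 241 and 277 in *Gde2*KO, which overlapped, with a log2 difference of 0.18 ± 0.17 (SE). *Spry4*, which inhibits signaling to Raf, was at 318, 428 and 401 normalized counts in WT and at 575, 427 and 464 in *Gde2*KO, with a log2 difference of 0.35 ± 0.18 (SE). *Gde2*KO replicate 2 fell just below WT replicate 2 for *Spry4*.

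Spred proteins bring the Ras inactivator neurofibromin to the membrane. *Spred1* (chr2:117121374-117182279, plus strand) was at 4452, 5306 and 7899 normalized counts in WT and at 7853, 7385 and 7643 in *Gde2*KO at 4 months. WT replicate 3 was the highest of all 6 libraries, so the log2 difference of 0.42 ± 0.21 (SE) came from WT replicates 1 and 2. *Spred2* (chr11:19924375-20024026, plus strand) was at 2755, 2931 and 3081 normalized counts in WT and at 3265, 2705 and 2410 in *Gde2*KO, with a log2 difference of -0.08 ± 0.14 (SE). The genotypes overlapped for both Spred genes.

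Over the 10 genes the median log2 difference at 4 months was 0.38, beside 0.11 over all genes tested. With upper-quartile rescaling the median of all genes decreased by 0.14 and that of the 10 genes was 0.24, and no gene of the 10 changed sign. In normalized counts 4 of the 10 genes, *Dusp1*, *Dusp6*, *Dusp14* and *Spry2*, were higher in every *Gde2*KO library than in any WT library. That pattern was shown by 11.1% of all genes. Of the 10 genes 0 were lower in every *Gde2*KO library, against 4.26% of all genes. In bulk tissue, more RNA per cell and more cells that carry the transcript cannot be told apart.

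The WT replicates that stood apart in regional markers were also at the ends of the range for several of the 10 genes. *Dusp1*, *Dusp6*, *Dusp14*, *Spry2* and *Spred1* were lower in WT replicates 1 and 2 than in each of the other 4 libraries, as 22.1% of all genes were. *Dusp4* was higher, as 12.8% were. For *Dusp1*, *Dusp6*, *Dusp14* and *Spry2* every *Gde2*KO library already lay above WT, so 22.1% is not a like background for them. Without both libraries, which leaves WT replicate 3 alone against the 3 *Gde2*KO libraries and takes the spread from the latter, the log2 difference was 1.02 for *Dusp1*, 0.87 for *Dusp6*, 0.53 for *Dusp14*, 0.39 for *Spry2* and -0.05 for *Spred1*, and the differences of *Dusp4* and *Dusp5* changed sign, to 0.32 and 0.37. With the hippocampal marker score as a covariate the values were 1.37 for *Dusp1*, 0.96 for *Dusp6*, 0.83 for *Dusp14* and 0.61 for *Spry2*. *Dusp6* thus moved least of the 4 genes that separated the genotypes, and *Dusp14* and *Spry2* fell below the fold threshold of 0.721 on the log2 scale without the pair.

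At 19 months, values that the choice of the group had not used, *Dusp1* was at 941, 1638 and 2154 normalized counts in WT libraries A, B and C and at 1841, 1251 and 1402 in *Gde2*KO libraries A, B and C. The *Gde2*KO libraries lay within the WT range. The log2 difference was -0.01, with a 95% interval from -0.64 to 0.61 (limma). *Dusp6* was at 1519, 1928 and 2429 normalized counts in WT and at 2107, 1952 and 1926 in *Gde2*KO, again with all *Gde2*KO libraries inside the WT range. Its log2 difference was 0.05, with a 95% interval from -0.28 to 0.39.

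*Dusp14* was at 1346, 1332 and 1641 normalized counts in WT and at 1128, 1305 and 1373 in *Gde2*KO at 19 months, and *Spry2* was at 1565, 1593 and 1878 in WT and at 1287, 1629 and 1751 in *Gde2*KO. Both sets of libraries overlapped. The log2 difference was -0.18 for *Dusp14*, with a 95% interval from -0.42 to 0.06, and -0.12 for *Spry2*. *Dusp4* was at 349, 610 and 645 normalized counts in WT and at 498, 585 and 657 in *Gde2*KO, and its log2 difference of 0.16 had a 95% interval from -0.35 to 0.67. *Dusp5* was at 676, 751 and 874 normalized counts in WT and at 556, 687 and 799 in *Gde2*KO.

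*Spry4* was at 461, 521 and 574 normalized counts in WT and at 506, 473 and 540 in *Gde2*KO at 19 months, with the *Gde2*KO libraries inside the WT range. The means of the remaining genes differed by less than the SD of either genotype: *Spry1* 227 ± 35.5 in WT and 218 ± 24.9 in *Gde2*KO, *Spred1* 7039 ± 594 and 6827 ± 707, and *Spred2* 3576 ± 72.1 and 3539 ± 320 normalized counts (SD, n = 3). In limma's test 0 of the 10 genes passed the threshold, with Benjamini-Hochberg adjusted p from 0.734 to 0.992, and 0 had an unadjusted p under 0.05; over all genes 18 of 18583 passed (0.0969%) and 1285 had an unadjusted p under 0.05. None was higher or lower in every *Gde2*KO library, as 5.85% and 8.32% of all genes were. The median difference was -0.04 over the 10 genes and -0.02 over all genes. *Spry1*, the gene with the fewest reads, rested on 28 estimated reads in *Gde2*KO A (exact 95% Poisson interval 18.6 to 40.5, counting error only) and 40 in WT A.

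**Figure D2:**
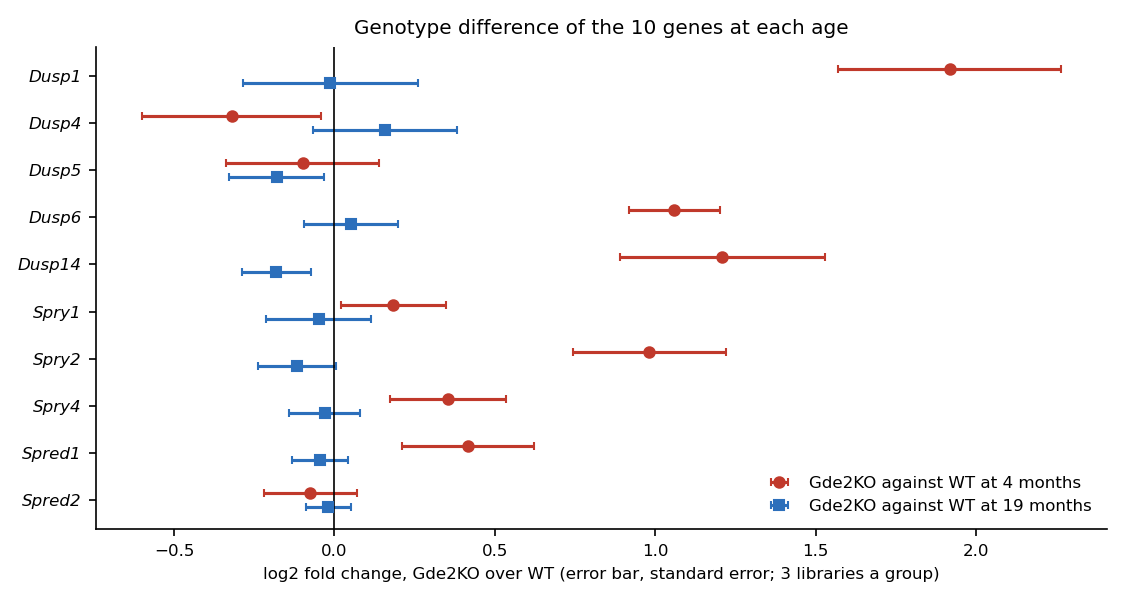
Log2 fold change of *Gde2*KO over WT (x axis) for each of the 10 genes (y axis) at 4 months (red circles) and 19 months (blue squares); error bars are standard errors, with 3 libraries a group. The 4-month values reach 1.92 for *Dusp1*, and the 19-month values lie between -0.18 and 0.16.

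The difference between the ages was tested as a genotype by age interaction in limma over all 12 libraries. This test holds the 4-month libraries whose values chose the group, so its values are a description and no p is given. The 19-month difference minus the 4-month difference was -1.93 ± 0.50 (SE) on the log2 scale for *Dusp1*, -1.39 ± 0.37 for *Dusp14*, -1.10 ± 0.29 for *Spry2* and -1.01 ± 0.22 for *Dusp6*. Over all genes 9 of 18731 passed at an adjusted p under 0.1 (0.048%), and nothing is read from the count among the 10. Without WT replicates 1 and 2 of 4 months, an alternative chosen after seeing the data, the values were -1.03 for *Dusp1*, -0.71 for *Dusp14*, -0.50 for *Spry2* and -0.82 for *Dusp6*. The median was -0.42 over the 10 genes and -0.15 over all genes, which rescaling by the median of ratios or the upper quartile raised by 0.12 and 0.14.

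Each genotype was also compared between the ages, in different animals and library sets, so age and library set cannot be told apart. These comparisons share their 4-month libraries with the comparison that chose the group. In WT, *Dusp14* rose by 0.96 ± 0.26 (SE) on the log2 scale and was the 1 of 10 genes past the threshold, beside 13.7% of all genes. *Spry2* was 0.72 ± 0.21 higher, just under the fold threshold, and *Dusp1* was 0.85 ± 0.35 higher. *Dusp14*, *Spry2*, *Spry4* and *Spred2* were higher in every 19-month WT library than in any 4-month WT library, as 19.3% of all genes were, and 0 were lower in every one, against 26.7%. Without WT replicates 1 and 2 of 4 months, the values were 0.27 for *Dusp14*, 0.13 for *Spry2* and -0.05 for *Dusp1*, and 0 of the 10 genes passed. The count was 0 also without either of those replicates alone. It was 3 without WT replicate 3 of 4 months, where 16.7% of all genes passed. Leaving out WT library A of 19 months gave 3, and leaving out WT library B gave 2.

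In *Gde2*KO, *Dusp1* fell by 1.08 ± 0.35 and *Dusp6* fell by 0.74 ± 0.15 (SE) on the log2 scale, and both passed the threshold, 2 of 10 genes beside 11.9% of all genes. *Dusp14* was at -0.43, *Spry2* at -0.38 and *Spry1* at -0.30, and none of them passed. *Spred2* went the other way, at 0.35, under the fold threshold. Of the 10 genes 4 were above 0 and 6 below. In normalized counts *Dusp1*, *Dusp6*, *Spry1* and *Spry2* were lower in every 19-month *Gde2*KO library than in any 4-month one, as 29.9% of all genes were. On that scale 0 were higher in every one, against 11.3%. In TPM the ages overlapped for *Spry1*, and *Spred2* was higher in every 19-month library. Shares over all genes are not given for TPM. The median was -0.23 over the 10 genes and -0.21 over all genes. Rescaling the libraries by the median of ratios or the upper quartile raised the median of all genes by 0.16 and 0.18, and 1 of the 10 genes then passed. The count was 0 without *Gde2*KO replicate 1 or 3 of 4 months or library C of 19 months, and 1 without library B. Over all settings 5.91% to 15.4% of all genes passed.

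**Figure D3:**
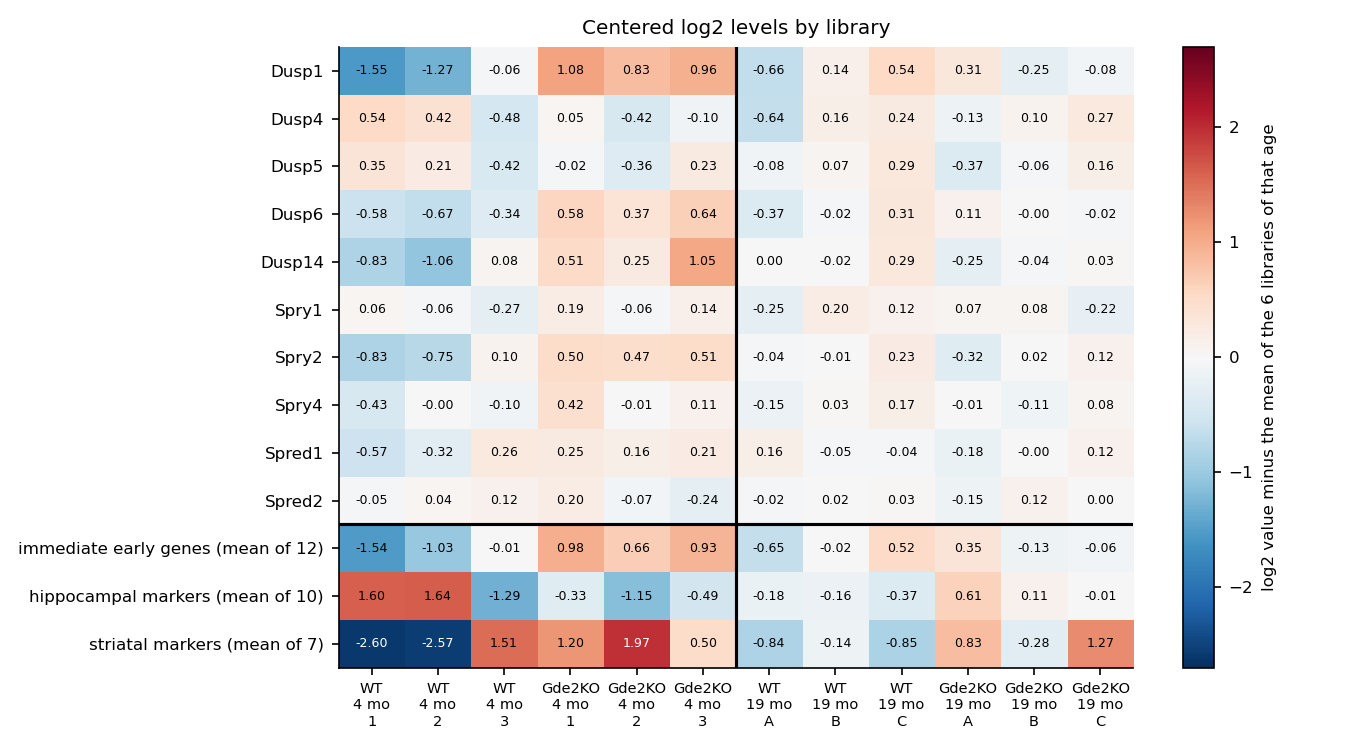
Log2 normalized counts of the 10 genes (rows) in the 12 libraries (columns), each minus the mean of the 6 libraries of that age, with the mean centered values of 12 immediate early genes, 10 hippocampal and 7 striatal markers below the line; blue is low and red is high. *Dusp1* runs from -1.55 in WT replicate 1 to 1.08 in *Gde2*KO replicate 1 at 4 months, the immediate early genes from -1.54 to 0.98 in the same libraries, and the striatal markers are at -2.60 and -2.57 in WT replicates 1 and 2.

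*Dusp1* varied most of the 10, with an SD of 0.84 over the 12 libraries in log2 values centered within each age. The 3 genes whose centered values lay nearest to it were *Arc*, *Trib1* and *Npas4*, at mean absolute differences of 0.13, 0.14 and 0.15, where the median over 18730 genes was 0.65. *Arc* and *Npas4* are neuronal immediate early genes. *Spry2* (SD 0.44) lay nearest to *Kcnj4*, *Pak7* and *Boc*, at 0.091 to 0.098 against a median of 0.36, and *Spred1* (SD 0.25) lay nearest to *Znrf1*, *R3hdm2* and *Asap1*, at 0.051 to 0.060 against 0.25. These distances are descriptions over 12 libraries that share the depth and marker differences given above.

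A list of 12 activity-induced immediate early genes was read beside the 10 genes. It was written with earlier results of these data known, so its values are a description and no p is given. The mean centered level of the list at 4 months was -1.54, -1.03 and -0.01 in WT replicates 1, 2 and 3. In the *Gde2*KO libraries it was 0.98, 0.66 and 0.93. At 19 months it was -0.65, -0.02 and 0.52 in WT A, B and C and 0.35, -0.13 and -0.06 in *Gde2*KO. Within each of the 4 groups the libraries stood in the same order for this mean as for *Dusp1*, which is not on the list. The share of all genes with that order is not given, so nothing is read from the match. All 12 genes were above 0 in the 4-month difference, with a median of 1.69, and 2 passed the threshold, beside 0.126% of all genes. These were *Btg2*, an antiproliferative early gene, at 1.78 ± 0.23 (SE), and the nuclear receptor *Nr4a1*, at 1.60 ± 0.20.

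Other parts of the ERK pathway were described from 7 further lists, which together with the early genes held 121 genes. Those lists too were written with earlier results of these data known. At 4 months 2 of the 120 genes tested passed, the early genes above. Of 9 other MAP kinase phosphatases, 8 were above 0 with a median of 0.54, and none passed. The medians that follow are of log2 differences, with all 6 libraries. The phosphatases farthest from 0 were *Ptpn7* at 0.93 ± 0.55 and *Dusp9* at 0.86 ± 0.51 (SE). The 24 genes of the relay from Ras to ERK had a median of 0.08, the 16 receptors 0.05, the 16 ligands 0.23, the 16 kinases and factors below ERK 0.14, the 14 other feedback proteins -0.13 and the 13 ERK output genes tested 0.15, of which 7 were above and 6 below 0. None of these passed. *Erf*, a repressor that ERK phosphorylates, was at 0.72 ± 0.18 (SE). Of the ERK output genes, *Ier3* was at 1.36 ± 0.40, *Phlda1* at 0.77 ± 0.19 and *Epha4* at -0.73 ± 0.30. *Ksr1*, the scaffold of Raf and MEK, was at -1.28 ± 0.44. *Ksr1* stood at 5668 and 4583 normalized counts in WT replicates 1 and 2, which differ in regional markers, at 1539 in WT replicate 3 and at 1703, 1389 and 1186 in *Gde2*KO, so WT replicate 3 lay inside the *Gde2*KO range. Without WT replicates 1 and 2 the median of the early genes was 0.89, that of the other MAP kinase phosphatases 0.13, and 0 of the 120 genes passed.

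At 19 months 0 of the 121 genes passed between the genotypes, and the medians of the 8 lists lay between -0.05 and 0.08. The comparisons between ages share the 4-month libraries, and the lists were written with earlier results known, so no p is given. Between ages in WT, 13 rose and 5 fell, 14.9% of the 121 genes beside 13.7% of all genes. The rises included 5 early genes, among them *Fosb* (1.53 ± 0.33, SE) and *Egr1* (1.64 ± 0.41). They also included 6 ERK output genes, among them *Etv5* (1.04 ± 0.18). The ERK output genes *Etv1* (-0.81 ± 0.28) and *Epha4* (-0.74 ± 0.24) were among the falls. Without WT replicates 1 and 2 of 4 months, where the early genes were at -1.54 and -1.03 against -0.01 in replicate 3, 1 of the 121 genes rose and 1 fell, and the median of the early genes was 0.018 instead of 0.94. Between ages in *Gde2*KO, 3 rose and 9 fell, 9.92% of the 121 genes beside 11.9% of all genes, of which 478 rose and 1746 fell. The falls included 4 early genes, among them *Btg2*, which fell by 2.07 ± 0.28, and *Junb*, which fell by 1.08 ± 0.36 (SE). The interaction called 0 of the 121 genes.

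**Figure D4:**
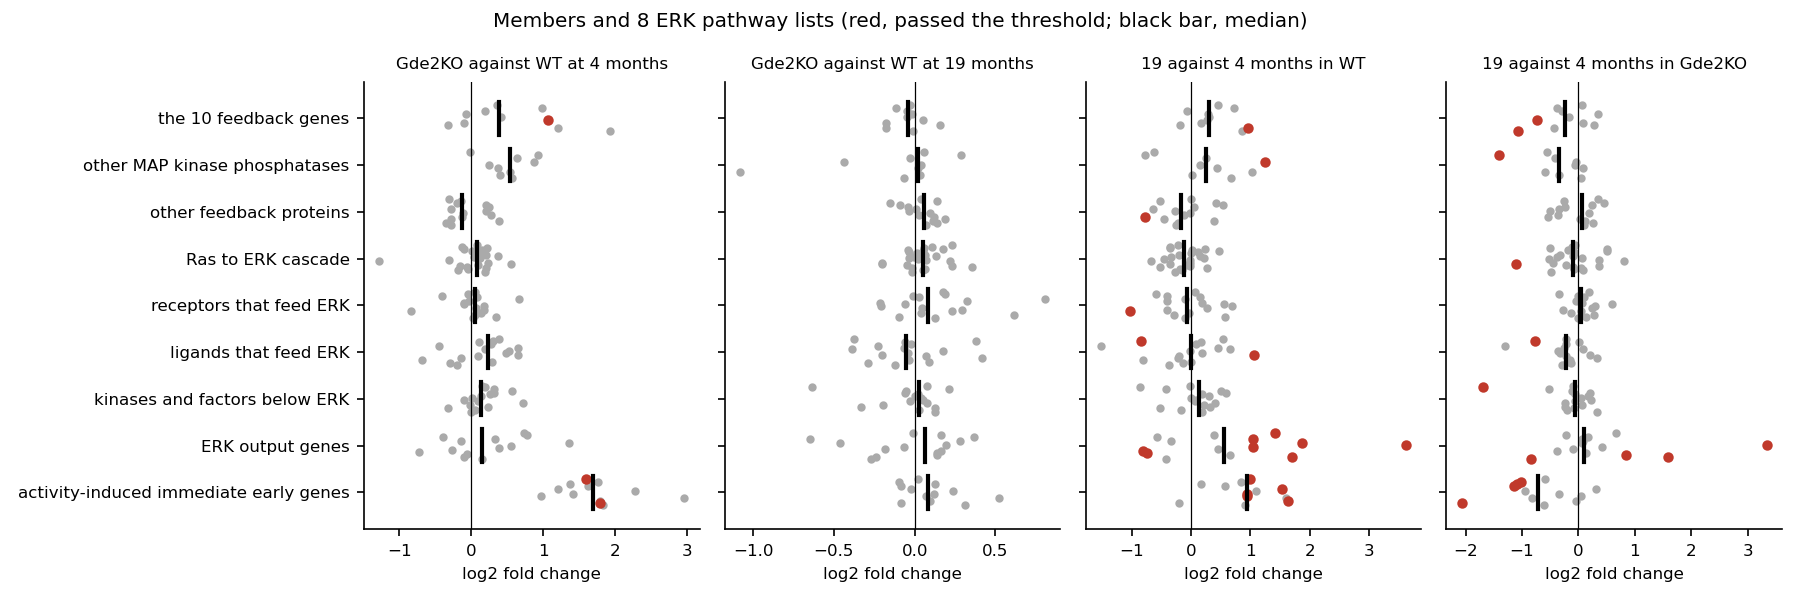
Log2 fold change (x axis, a separate scale for each comparison) of the 10 feedback genes and the genes of 8 ERK pathway lists (rows); each point is a gene, red points passed the threshold and black bars are medians. The early genes have a median of 1.69 at 4 months and 0.08 at 19 months.

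Transcript usage was a readout that the choice of the group had not used. *Dusp4*, *Dusp5*, *Spry2* and *Spry4* had 1 listed transcript each, and the other 6 genes had 2 to 6. The leading transcript held 98.3% of the TPM of *Spred1*, 87.9% of *Dusp1*, 87.7% of *Dusp6*, 57.7% of *Spry1*, 56.5% of *Dusp14* and 53.9% of *Spred2*. In limma's diffSplice test 0 of the 6 genes passed at 4 months, where 1.12% of 12235 genes did, with adjusted p from 0.700 to 0.966 and 0 at an unadjusted p under 0.05 beside 1640 of all genes. At 19 months 0 of the 6 passed as well, where 0.171% of 12253 genes did, with adjusted p from 0.868 to 0.968, and 1, *Spred1*, was at an unadjusted p under 0.05 beside 701 of all genes. *Dusp14* (adjusted p = 0.890) had an adjusted p from 0.0446 to 1 over the alternatives: without WT library C it was 0.0446, with a share change of -9.70 percentage points for its leading transcript, just under the 10 points required.

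Some shares did not overlap between the genotypes, without passing. Among transcripts of the 10 genes this held for 5 of 21 at 4 months and 3 of 20 at 19 months, beside 15.7% of 56631 and 12.2% of 55863 transcripts over all genes. For the summed share of transcripts without a coding sequence it held for 1 of 2 genes at each age, beside 14.1% and 11.6% of all genes with both kinds. The examples below were picked after their values were seen. Transcripts of *Dusp1* without a coding sequence, mostly with retained introns, made up 12.9%, 15.8% and 15.4% of its TPM in WT and 6.70%, 11.1% and 5.03% in *Gde2*KO at 4 months. The genotypes did not overlap, and the leading coding transcript held 91.9% ± 3.02 in *Gde2*KO and 83.6% ± 2.80 in WT (SD, n = 3; adjusted p = 0.966 for the gene, limma). For *Spred2*, transcript ENSMUST00000093299.12 made up 49.1% ± 0.94 of the TPM in WT and 60.8% ± 8.14 in *Gde2*KO (adjusted p = 0.700, limma). At 19 months the processed transcripts of *Dusp6* made up 23.6%, 12.7% and 17.9% of its TPM in WT and 3.03%, 11.7% and 10.2% in *Gde2*KO, where library A of each genotype was shallow.

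**Figure D5:**
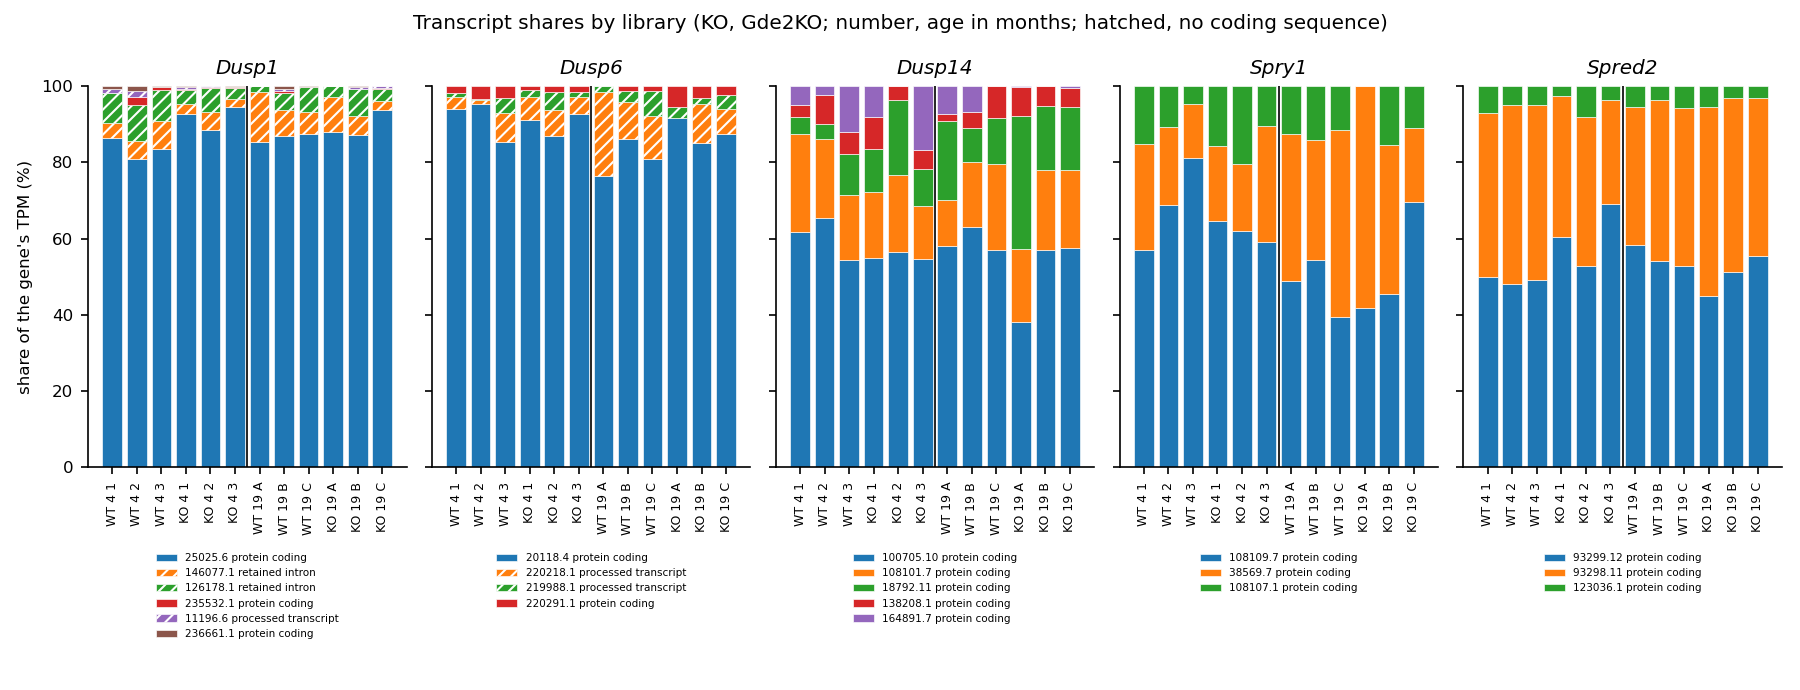
Share of the gene's TPM (y axis, percent) held by each transcript in the 12 libraries (x axis: genotype, age in months, and library) for 5 genes with several transcripts; hatched segments have no coding sequence, and the legend gives the last digits of the transcript identifier. The leading *Dusp1* transcript holds 83.6% on average in WT and 91.9% in *Gde2*KO at 4 months.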

How the data were processed

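Poly(A) RNA of mouse cortex was sequenced with NEBNext Ultra II libraries. According to the submitters' processing notes, reads were processed with bcl2fastq 2.17, Trimmomatic 0.36, STAR 2.5.2b, kallisto and sleuth, with GRCm38. The authors deposited 2 transcript tables of signal values: kallisto estimated counts divided by a size factor for each library (called normalized counts here), and TPM divided by it. Neither holds raw counts, so no count model was used. Identifiers followed GENCODE vM21; 1673 of 118489 transcripts had no gene.

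Transcripts were summed to genes. Genes with at least 5 normalized counts in at least 47% of the libraries were tested with limma 3.58.1 (R 4.3.3) on log2(value + 0.5) with an intensity trend, in place of the study's Wald test. Fold changes are on that scale and understate changes of low genes. Calls required an adjusted p (Benjamini-Hochberg, all genes tested) under 0.1 with a natural-log change over 0.5 (0.721 on the log2 scale); interactions needed the adjusted p alone. Usage was tested with diffSplice on transcripts with a mean of 5 or more, called with a share change over 10 percentage points. Fits were tested on simulated data. Exact tests of 3 against 3 cannot go below p = 0.1 and were not used.

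The members and lists were chosen with earlier results of these data known. All members were named, *Gdpd5* as the targeted gene, list genes that passed (up to 4 of a list, smallest adjusted p first) or otherwise the 2 with the largest change, of which some are given, and the 3 nearest genes for the most variable member of each family. *Etv1* and *Epha4* are also named, as genes that went the other way. Alternatives were other scalings, filters, offsets, TPM, covariates, a replicate block and omitted libraries.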

Additional observations from a re-analysis of the deposited data

How the results depend on the processing

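Log2 changes below are of the 10 genes, and the cause of a change with a setting was not tested. Of the 10 genes, 1 passed at 4 months and 0 did with no filter, with TPM, without the intensity trend, with either marker score as a covariate and without both WT replicates 1 and 2; leaving out 1 library gave 0 to 4. In WT between ages, 1 passed, 3 did under both rescalings and without the shallow WT library, and 0 did without WT replicates 1 and 2 of 4 months; leaving out 1 library gave 0 to 3. In *Gde2*KO between ages, 2 passed and 1 did under both rescalings and with TPM; leaving out 1 library gave 0 to 2. The interaction count was 0 to 5 when 1 library was left out, 5 without WT replicate 3 of 4 months and 1 without WT library A of 19 months; the 4-month libraries in it chose the genes. No setting called a member at 19 months, or in transcript usage with the required share change (*Dusp14* reached an adjusted p of 0.0446 at 19 months without WT library C). Alternatives chosen after seeing the data were the striatal covariate and the fits without both WT replicates 1 and 2 between ages, for the interaction and for usage.

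Deviations of the same-numbered libraries at 4 months had correlations of 0.043, -0.025 and -0.048, and those of unlike number ran from -0.12 to 0.11. With 3 libraries a group this cannot settle whether the numbers pair animals, which the sources used here do not state. With a replicate block 0 of the 10 genes passed at 4 months and 0 in usage. At 19 months the columns carry no replicate numbers, and no block was fitted.

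Signs of small differences changed. At 4 months the hippocampal covariate, the striatal covariate and the fit without WT replicates 1 and 2 gave 0.13, 0.25 and 0.32 for *Dusp4* and 0.24, 0.37 and 0.37 for *Dusp5*, and the last gave -0.051 for *Spred1*. At 19 months the median of ratios gave 6.54e-05 for *Dusp1*, TPM gave -0.0569 for *Dusp6* and 0.00957 for *Spred2*, and leaving out both shallow libraries gave -0.017 for *Dusp4*, -0.16 for *Dusp6*, 0.10 for *Spred1* and 0.0332 for *Spred2*. In WT between ages, leaving out the shallow WT library gave 0.085 for *Dusp4* and 0.069 for *Spry1*, and leaving out WT replicates 1 and 2 gave -0.051 for *Dusp1*, 0.45 for *Dusp4*, 0.11 for *Spry1* and -0.17 for *Spred1*. In *Gde2*KO between ages the upper quartile gave 0.020 for *Spred1*. For the interaction both rescalings gave 0.040 and 0.062 for *Dusp5*, and leaving out WT replicates 1 and 2 gave -0.17 for *Dusp4* and 0.0049 for *Spred1*.

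With 1 library left out in turn, the 4-month values ran from -0.33 to 0.056 for *Dusp5* and -0.19 to 0.026 for *Spred2*. The 19-month values ran from -0.35 to 0.25 for *Dusp1*, -0.12 to 0.32 for *Dusp4*, -0.12 to 0.22 for *Dusp6*, -0.18 to 0.050 for *Spry1*, -0.21 to 0.014 for *Spry2*, -0.11 to 0.045 for *Spry4*, -0.12 to 0.034 for *Spred1* and -0.081 to 0.050 for *Spred2*. In WT between ages they ran from -0.52 to 0.085 for *Dusp4*, -0.068 to 0.32 for *Dusp5* and -0.15 to 0.069 for *Spry1*, and in *Gde2*KO from -0.072 to 0.22 for *Dusp5* and -0.031 to 0.18 for *Spry4*. For the interaction they ran from -0.24 to 0.15 for *Dusp5* and -0.045 to 0.17 for *Spred2*.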
